A study of Homo sapiens with 6 samples.

Results

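Protein kinase A (PKA), its anchoring proteins GSKIP and AKAP12 and the kinase GSK3 were followed here through 10 genes: the catalytic subunit genes PRKACA and PRKACB, the regulatory subunit genes PRKAR1A, PRKAR1B, PRKAR2A and PRKAR2B, the anchoring protein genes GSKIP and AKAP12, and GSK3A and GSK3B. Every probe set whose only gene symbol in GEO's platform annotation was one of these 10 was taken, which gave 29 of the 49395 probe sets in the value table. The set was put together because PRKACB was lower and GSKIP higher by more than 2-fold in the comparison described here. All differences of its members are therefore descriptions, given with a standard error and a call but with no p-value.

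RNA of 786-O cells, an established line from a human renal cell carcinoma, was measured on 6 Affymetrix arrays with 1 colour each. In 3 samples the cells carried an shRNA against ERCC6L (shERCC6L) and in 3 a negative control shRNA (shNC), and all of them had received lentivirus and were grown in RPMI medium with serum. ERCC6L encodes a DNA translocase that acts on the threads between sister chromatids in anaphase. The labels give neither the number of hairpins nor whether the replicates were separate cultures, so the spread between arrays may be technical.

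PKA is held inactive by regulatory subunits that cover the active sites of its catalytic subunits, and cyclic AMP bound by the regulatory subunits frees the kinase. A-kinase anchoring proteins (AKAPs) hold the regulatory subunits, mostly the type II ones, beside particular substrates. GSKIP is a small anchoring protein that binds both PKA and GSK3-beta, and phosphorylation by PKA switches GSK3 off. GSK3 in turn marks beta-catenin for destruction and inhibits glycogen synthase. PKA is known in the kidney for carrying the vasopressin signal that moves water channels to the surface of collecting duct cells.

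ERCC6L itself read 97.59, 97.49 and 97.83 in shERCC6L and 239.9, 244.3 and 261.4 in shNC, so the target was lower on each shERCC6L array. Array medians lay between 60.02 and 61.54 and lower quartiles between 17.05 and 17.87. Log2(signal + 16) correlated at 0.9986 to 0.999 within groups and at 0.9931 to 0.9938 across them. Of 10 listed renal markers 7 were analysed here, PAX8, PAX2, VIM, KRT8, KRT18, NNMT and CDH16, and all 7 exceeded the array median on every array. Of these 7, PAX8 was called higher in shERCC6L, at a log2 difference of 0.34, and KRT18 at 0.13, while NNMT at -0.66 and CDH16 at -0.15 were called lower. The summed signal of the 4 leukocyte genes was 195.2 to 204 in shERCC6L and 165.7 to 186 in shNC, and that of the 6 fibroblast and pericyte genes was 193.8 to 209.8 in shERCC6L and 234.7 to 246.6 in shNC. CD68, a macrophage gene, was the leukocyte marker called higher, with 146.3, 158.1 and 152 in shERCC6L and 139.9, 121.9 and 120.3 in shNC (log2 difference 0.23). COL1A1 at -0.38 and ACTA2 at -0.26 were called lower among the fibroblast and pericyte genes. No marker read an exact 0. PTPRC, which defines leukocytes, read 6.76 to 7.81 in shERCC6L and 7.16 to 7.47 in shNC. The 5 endothelial genes summed to 220 to 230.2 in shERCC6L and 228.1 to 235.9 in shNC. The part of these shifts in the results was not tested.

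The upstream sequences of 5 members that changed are shown first, since PKA acts on transcription through CREB, a factor that binds the cyclic AMP response element (CRE). Each stretch runs 5′ to 3′ over 250 bases before an annotated start and the start base itself, from RefSeq on GRCh38.p14, with the short CRE motif TGACG (or CGTCA on the other strand) in capitals. The lines give, in order, 3 genes with lower signals, GSKIP as the member with the largest rise, and PRKAR1A, which also rose. All 5 stretches hold the short motif, so they do not stand for every member that changed. AKAP12 rose more than PRKAR1A but is not shown, and none of its windows held the motif. For PRKAR1A the start shown is the one whose upstream stretch holds the full element TGACGTCA, in which a copy of the short motif on each strand overlaps.
PRKACB, chr1:84077829-84078079, plus strand: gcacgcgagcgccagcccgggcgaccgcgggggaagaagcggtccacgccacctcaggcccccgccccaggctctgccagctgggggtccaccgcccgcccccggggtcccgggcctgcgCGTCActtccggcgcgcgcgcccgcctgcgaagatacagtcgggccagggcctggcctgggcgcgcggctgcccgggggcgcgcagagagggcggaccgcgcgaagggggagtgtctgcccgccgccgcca
PRKACA, chr19:14117762-14118012, minus strand: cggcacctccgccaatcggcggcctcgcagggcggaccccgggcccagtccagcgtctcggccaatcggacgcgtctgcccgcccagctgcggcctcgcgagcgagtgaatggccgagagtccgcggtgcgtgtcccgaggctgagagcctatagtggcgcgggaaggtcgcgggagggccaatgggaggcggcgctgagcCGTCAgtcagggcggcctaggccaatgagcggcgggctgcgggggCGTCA
PRKAR2A, chr3:48847874-48848124, minus strand: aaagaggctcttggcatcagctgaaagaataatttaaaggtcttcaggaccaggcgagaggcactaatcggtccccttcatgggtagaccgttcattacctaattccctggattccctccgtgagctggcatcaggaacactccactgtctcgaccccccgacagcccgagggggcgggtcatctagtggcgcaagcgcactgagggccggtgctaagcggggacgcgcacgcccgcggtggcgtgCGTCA
GSKIP, chr14:96363276-96363526, plus strand: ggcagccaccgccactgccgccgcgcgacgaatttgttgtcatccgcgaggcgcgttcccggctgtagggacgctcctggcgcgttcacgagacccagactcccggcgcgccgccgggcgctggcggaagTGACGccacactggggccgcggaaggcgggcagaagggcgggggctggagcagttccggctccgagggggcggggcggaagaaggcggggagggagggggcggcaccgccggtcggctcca
PRKAR1A, chr17:68512180-68512430, plus strand: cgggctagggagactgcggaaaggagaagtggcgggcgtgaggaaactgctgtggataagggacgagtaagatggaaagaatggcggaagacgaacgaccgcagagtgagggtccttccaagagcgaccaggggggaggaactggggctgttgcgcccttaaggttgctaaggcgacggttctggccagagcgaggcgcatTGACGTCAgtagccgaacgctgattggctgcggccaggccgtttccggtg

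The short motif began at -130 from the start in PRKACB, at -49 and -4 in PRKACA, at -4 in PRKAR2A and at -120 in GSKIP. All 10 genes matched RefSeq, which lists 27 windows of 300 bases for them (250 before to 50 after each start). The short motif was in 11 of these windows and in 24.6% of all 35116 windows. The 11 windows came from 7 genes. Windows of 1 gene can overlap, as some of PRKAR1A and of PRKAR1B do, so they are not independent. The shares given are per window, and no share per gene was computed. The full element was in 2 windows, both of PRKAR1A and overlapping each other, and in 1.85% of all windows. None of the 3 AKAP12 windows, the GSK3B window or the PRKAR2B window held the short motif. Apart from the window whose stretch is shown, no window of PRKACB, PRKACA or GSKIP held it either. GC boxes (GGGCGG, both strands) were in 16 of the 27 windows, against 45% of all windows. Each of the 10 genes had at least 1 such window. CCAAT (both strands) was in 8 member windows, against 34.6% of all windows. Such a match describes letters and shows no binding. The stretches shown stand upstream of genes that changed in both directions.

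Of the 29 probe sets, 10 were called higher in shERCC6L, 9 lower and 10 were not called, at an adjusted p of 0.05 in limma's test over all 49293 probe sets that are not array controls. Across all of these, 28.7% were called, 16.8% higher and 11.9% lower. The groups did not overlap on 19 of the 29, and on 41% of all probe sets. At 2-fold or more, 1 member probe set was higher and 2 were lower, where 0.0852% and 0.288% of all probe sets were. Because the set was chosen on this contrast, nothing is read from these shares. The members' median log2 difference was 0.01, against -0.01 over all probe sets.

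**Figure D1:**
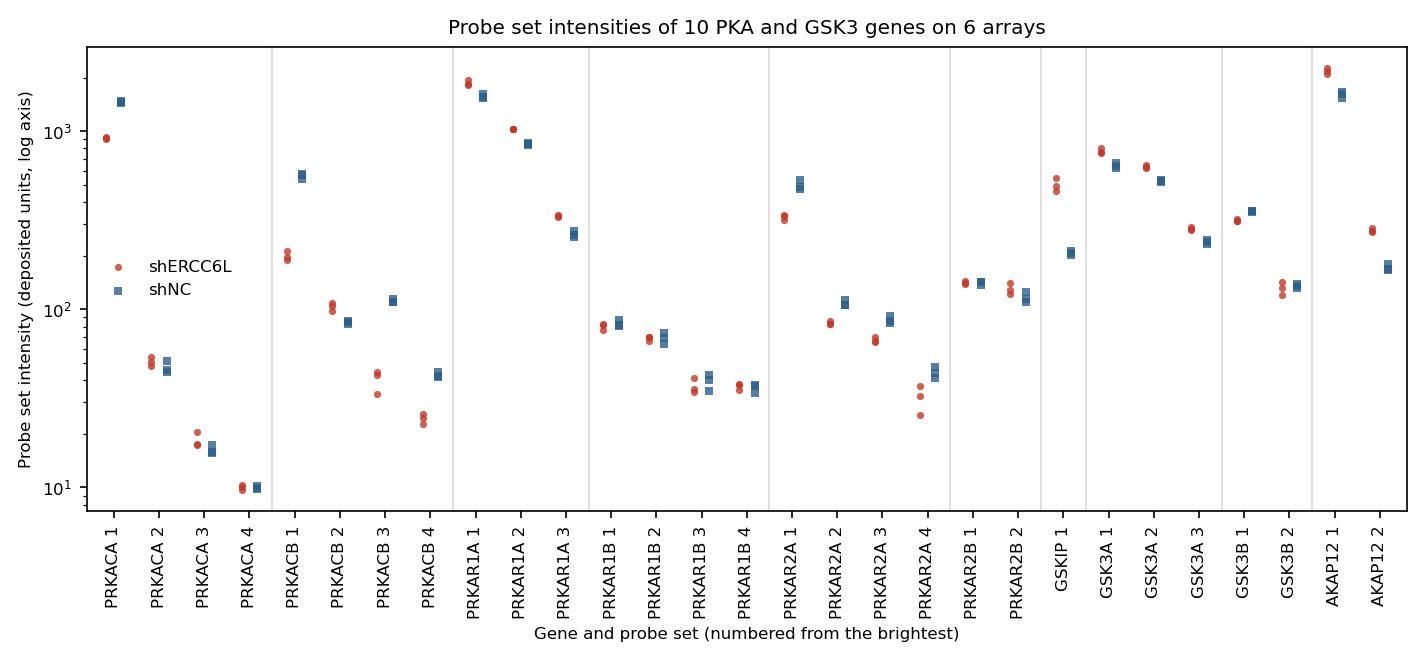
Deposited intensity (log axis) of each of the 29 probe sets, numbered from the brightest within a gene, with 1 point per array: red circles for the 3 shERCC6L arrays and blue squares for the 3 shNC arrays. The red points stand clearly below the blue ones for the brightest PRKACA, PRKACB and PRKAR2A probe sets and above them for GSKIP and AKAP12.

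The catalytic subunit genes came out lower on their brightest probe sets, PRKACB by far the more. PRKACB, on chromosome 1 from 84078079 to 84238498 (GRCh38.p14), encodes the C-beta subunit. Its brightest probe set (11716703_a_at) read 196.1, 189.7 and 212.8 in shERCC6L and 540.8, 566.5 and 575.2 in shNC. All 3 shERCC6L arrays lay far below all 3 shNC arrays, with 35.6% of the control signal left. The log2 difference was -1.42 ± 0.05 (SE, n = 3 per group), or 2.68-fold lower.

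The other 3 PRKACB probe sets did not move alike. Probe set 11755434_a_at read 42.56, 44.55 and 33.25 in shERCC6L and 109.7, 114 and 109.3 in shNC, a log2 difference of -1.18 ± 0.07. A dimmer one (11735694_a_at) read 25.83, 22.65 and 24.68 in shERCC6L and 41.92, 42.38 and 44.69 in shNC, at -0.55 ± 0.04. In the opposite direction, 11754927_x_at read 98.13, 104.4 and 107.9 in shERCC6L and 82.84, 84.82 and 85.76 in shNC, at 0.25 ± 0.04. In none of the 4 did the groups overlap, so 3 were lower and 1 higher, spread over 1.67 on the log2 scale. Affymetrix gives the ending _x_at to sets in which some probes also match other sequences. Probe sets of PRKACA, PRKAR1B and GSK3A carry it too, as do the brightest ones of several list genes below, such as CSNK1D, EZR and PRKX. Averaging the 4 probe sets brought PRKACB to -0.73 ± 0.03, under 2-fold. RefSeq lists 5 start windows for the gene, and which transcripts each probe set reads was not analysed here.

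PRKACA encodes C-alpha, the widely expressed catalytic subunit, on chromosome 19 from 14091688 to 14117762. Its brightest probe set (11757881_s_at) read 909.6, 930.5 and 906.3 in shERCC6L and 1458, 1474 and 1444 in shNC. The groups lay far apart and each was tight, with 62.8% of the control signal left and a log2 difference of -0.66 ± 0.03. The other 3 probe sets were dim and uncalled, with group means of 51.02, 18.49 and 10.04 in shERCC6L and 47.15, 16.29 and 9.94 in shNC. Their log2 differences were 0.09 ± 0.05, 0.09 ± 0.05 and 0.01 ± 0.03. The fall thus rests on 1 of 4 probe sets, and the average of the 4 was -0.12 ± 0.03. An ending of _s_at marks probes that can match transcripts of more than 1 gene. This probe set carries it, as do that of GSKIP, both GSK3B probe sets and the dimmest of PRKAR1A. So do the brightest probe sets of several list genes below, such as PKIA, CREM, CREBBP and DVL1.

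The regulatory subunit genes moved in different directions, type II alpha down and type I alpha up. PRKAR2A, which encodes RII-alpha, a subunit that docks on AKAPs, lies on chromosome 3 from 48744591 to 48847874. Its brightest probe set read 318.4, 338.6 and 332 in shERCC6L and 474.7, 484 and 532.6 in shNC, a log2 difference of -0.57 ± 0.05. Of the 3 others, 11739647_a_at averaged 83.81 ± 1.58 in shERCC6L and 107.6 ± 3.89 in shNC, and 11739648_a_at 67.49 ± 2.33 in shERCC6L and 87.1 ± 4.05 in shNC (SD, n = 3 each). They differed by -0.31 ± 0.04 and -0.30 ± 0.04 (log2, SE). The dimmest read 32.39, 25.44 and 37.09 in shERCC6L and 40.93, 47.18 and 43.6 in shNC, at -0.34 ± 0.08, and was not called without shNC replicate 2. All 4 PRKAR2A probe sets were called lower and none overlapped between the groups.

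PRKAR1A, on chromosome 17 from 68413623 to 68551316, encodes RI-alpha, the regulatory subunit whose loss causes the tumour syndrome called Carney complex. Its brightest probe set read 1833, 1816 and 1944 in shERCC6L and 1528, 1617 and 1557 in shNC. Another averaged 1028 ± 2.29 in shERCC6L and 844.1 ± 10.5 in shNC, and the dimmest 334.5 ± 4.74 in shERCC6L and 263.8 ± 10.1 in shNC (SD, n = 3 each). All 3 were called higher, and in each the lowest shERCC6L array lay above the highest shNC array. The 3 log2 differences were close together, at 0.25 ± 0.04, 0.28 ± 0.03 and 0.33 ± 0.04.

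For the beta isoforms of both regulatory types no probe set was called. PRKAR1B, on chromosome 7 from 549197 to 728934, encodes RI-beta, known mainly from brain. Its 4 probe sets averaged 80.45, 68.8, 37.07 and 36.9 in shERCC6L and 82.85, 68.94, 39.19 and 36.18 in shNC, with overlapping groups and log2 differences between -0.06 and 0.02. PRKAR2B, on chromosome 7 from 107044705 to 107161811, encodes RII-beta. It read 141, 139 and 145.1 in shERCC6L and 141.9, 137.5 and 142.4 in shNC on its brighter probe set, a log2 difference of 0.01 ± 0.03. The other read 140.5, 128.8 and 121.4 in shERCC6L and 110.2, 114.6 and 124.7 in shNC, at 0.14 ± 0.06, and its groups overlapped.

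GSKIP had the largest rise of the 10 genes. The gene lies on chromosome 14 from 96363526 to 96387290 and has 1 probe set (11724786_s_at). It read 462.2, 489.9 and 545.4 in shERCC6L and 208.2, 202.9 and 212.5 in shNC. Each shERCC6L array lay far above every shNC array, and the shERCC6L arrays were also the more spread, with SDs of 42.4 in shERCC6L and 4.79 in shNC. The log2 difference was 1.20 ± 0.06 (SE, n = 3 per group), or 2.30-fold. With no further probe set, this value has no check within the gene.

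AKAP12, also known as gravin, is a large scaffold that binds PKA, protein kinase C and the beta-2 adrenergic receptor. It lies on chromosome 6 from 151239967 to 151358559. Its brighter probe set read 2107, 2163 and 2260 in shERCC6L and 1534, 1667 and 1609 in shNC, a log2 difference of 0.44 ± 0.04. The dimmer one read 286.5, 276.7 and 273 in shERCC6L and 169.1, 178.4 and 165.9 in shNC, at 0.66 ± 0.04. Both were called higher and neither overlapped between groups. Next to the 2-fold limit that picked the set, GSKIP at 2.30-fold and the PRKACB probe sets at 2.68 and 2.27-fold lower lay inside it. AKAP12 at 1.58-fold and PRKACA at 1.58-fold lower lay nearest outside.

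The paralogous kinase genes GSK3A and GSK3B showed small differences of opposite sign. GSK3A, on chromosome 19 from 42230190 to 42242602, read 751, 768 and 804.8 in shERCC6L and 622.6, 636.1 and 666.4 in shNC on its brightest probe set. The other 2 averaged 631.7 ± 13.1 and 284.5 ± 5.23 in shERCC6L and 524 ± 5.59 and 239.1 ± 6.13 in shNC (SD, n = 3 each). All 3 GSK3A probe sets were called higher without overlap, at log2 differences of 0.27 ± 0.04, 0.26 ± 0.03 and 0.24 ± 0.03. GSK3B, the partner of GSKIP, lies on chromosome 3 from 119821321 to 120094447. Its brighter probe set read 312.9, 323.3 and 313 in shERCC6L and 350.2, 357.3 and 357.3 in shNC, at -0.16 ± 0.03, and was called lower. The other read 120.6, 141.8 and 132 in shERCC6L and 135.6, 132 and 138.3 in shNC, at -0.04 ± 0.05, with overlapping groups. With both GSK3B probe sets averaged the difference was -0.10 ± 0.03 and was not called. RNA was taken from whole cultures, so less signal in every cell and a loss in some of the cells cannot be told apart.

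**Figure D2:**
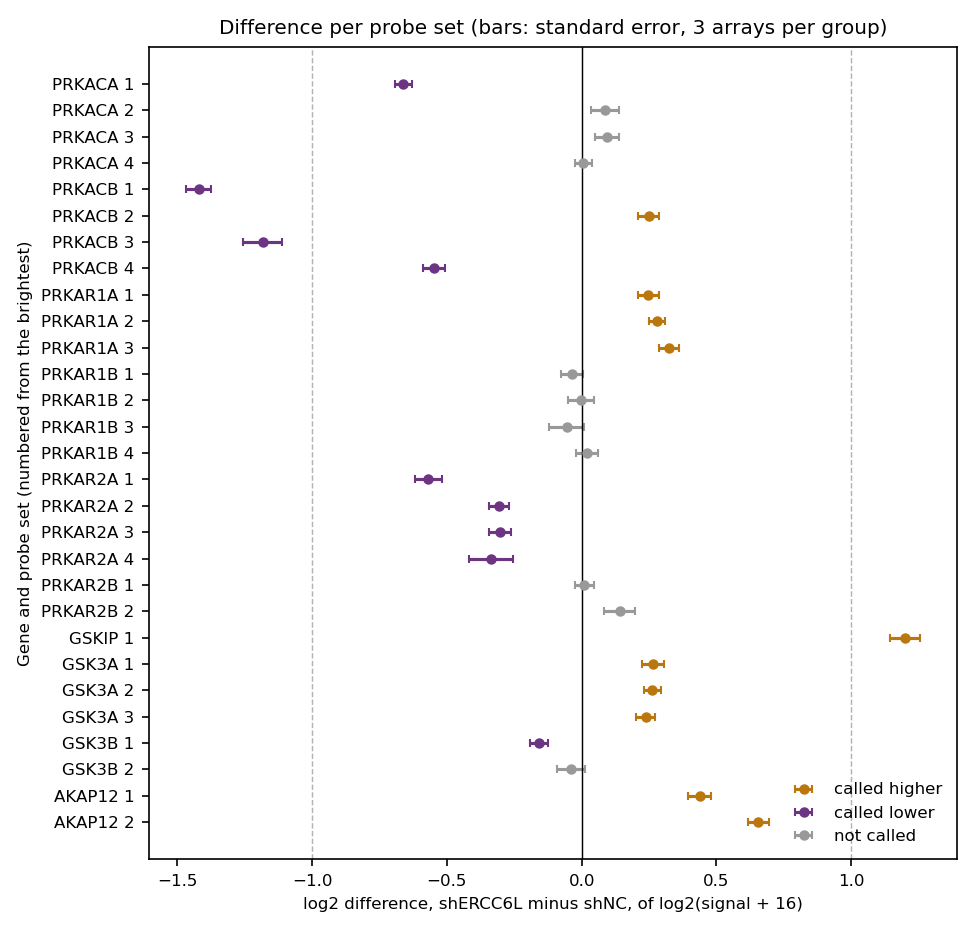
Log2 difference, shERCC6L minus shNC, on the log2(signal + 16) scale for each of the 29 probe sets, with standard errors from limma (3 arrays per group) and dashed lines at 2-fold. Probe sets of PRKAR1A, PRKAR1B and GSK3A lie close together within each gene. Those of PRKAR2A run from -0.57 to -0.30 and those of AKAP12 from 0.44 to 0.66, each with 1 sign. Those of PRKACB run from -1.42 to 0.25 and those of PRKACA from -0.66 to 0.09.

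Likeness over the 6 arrays was measured as the Euclidean distance between mean-centred log2(signal + 16) values, among the brightest probe sets of 18132 genes. Nearest to PRKACB were NETO2, ARPC5 and GNPTAB, at distances of 0.07, 0.07 and 0.08, with log2 differences of -1.43, -1.42 and -1.38. Nearest to GSKIP were DUSP6, SLCO4A1 and PSPC1, at 0.16, 0.17 and 0.19, with differences of 1.19, 1.24 and 1.09. With only 2 groups this mostly finds genes with a difference of the same size.

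Other genes of both pathways were taken from 10 lists of 131 genes, of which 119 were measured, each counted by its brightest probe set. Of these 119, 16 passed as higher and 17 as lower in shERCC6L. With all probe sets of a gene averaged, 23 passed as higher and 17 as lower. Averaged in the same way, 3603 of all 18132 genes passed as higher and 2577 as lower, which is the background for averaged counts below. The lists were written with earlier results of these data known, and most genes named below have the smallest p of their list. Their adjusted p-values therefore describe these data and are no independent test. Genes named below because averaging added their call were likewise chosen after their values were seen. Over the brightest probe sets of all genes, 17.8% passed as higher and 12.9% as lower. Each list count below is to be set beside these shares, and no conclusion is drawn from any of them. The median log2 difference was -0.01 in the lists and -0.01 over all genes. Past 1.5-fold there were 0 rises and 3 falls, of PKIA, CSNK1D and PHKB, where 0.711% of all genes rose and 1.37% fell by that much.

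**Figure D3:**
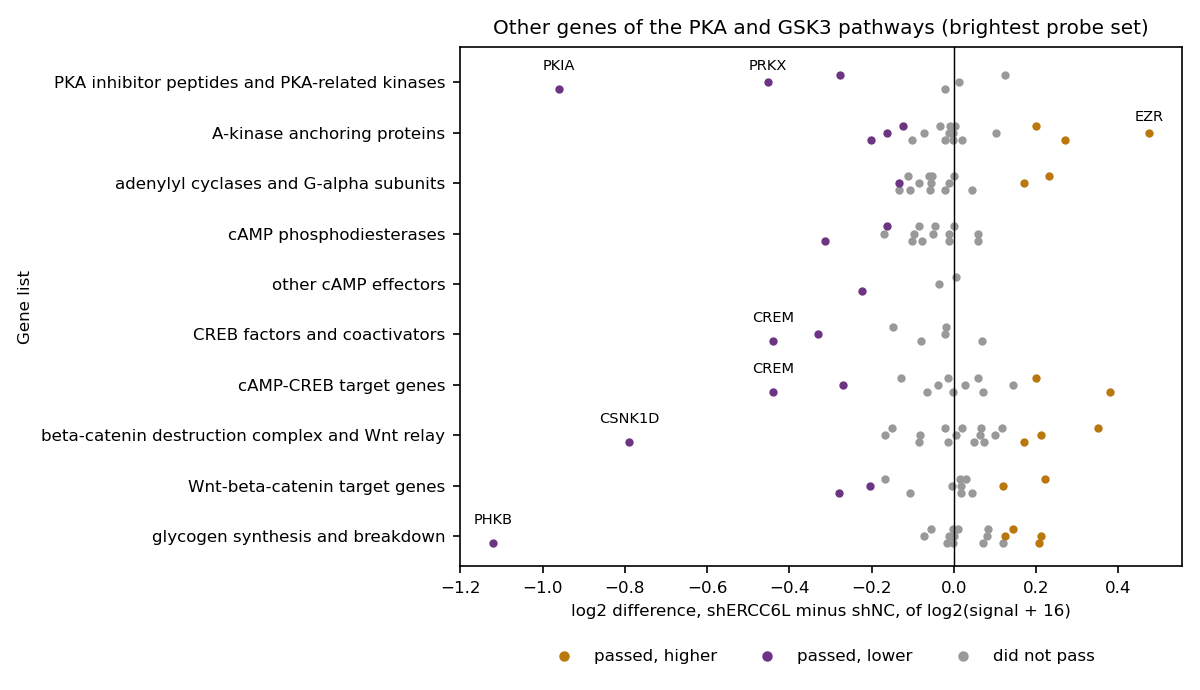
Log2 difference, shERCC6L minus shNC, on the log2(signal + 16) scale for each measured gene of the 10 lists (1 point per gene, brightest probe set, heights within a row only separate the points). Most points lie near 0, and PHKB, PKIA and CSNK1D lie farthest to the left.

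Among genes of PKA inhibitor peptides and PKA-related kinases, 3 of 6 fell and none rose (median log2 difference -0.15), where 12.9% of all genes fell. PKIA encodes a peptide that blocks the free catalytic subunit and leads it out of the nucleus. It read 255.1, 239.1 and 236.3 in shERCC6L and 452.4, 504.7 and 509.9 in shNC. The groups were far apart, at a log2 difference of -0.96 ± 0.05 (limma adjusted p = 4.7e-06), and all 3 of its probe sets fell. Its paralog PKIG fell by 0.28 ± 0.04 (adjusted p = 0.0010) and PRKX, a kinase close to the catalytic subunits, by 0.45 ± 0.06 (adjusted p = 0.00049). With probe sets averaged, PKIG and PRKX differed by -0.18 and -0.30. The rest of the list, the inhibitor gene PKIB and the kinase genes PRKG1 and PRKG2, did not pass, at 0.01, -0.02 and 0.12.

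Of 17 measured AKAP genes besides GSKIP and AKAP12, 3 rose and 3 fell (median -0.01). EZR encodes ezrin, which ties membranes to actin and anchors PKA, and read 1911, 1950 and 2017 in shERCC6L and 1396, 1436 and 1384 in shNC. The difference was 0.47 ± 0.04 (limma adjusted p = 2.5e-05), and all 5 of its probe sets rose. AKAP11, an anchor that also binds GSK3-beta, rose by 0.27 ± 0.04 (adjusted p = 0.00053), and all 3 of its probe sets were called higher. The mitochondrial anchor AKAP1 rose by 0.20 ± 0.04 (adjusted p = 0.0040), or 0.13 with probe sets averaged. The 3 that fell were AKAP6, AKAP7 and AKAP9, by 0.20, 0.16 and 0.12, and were named after their values were seen. These 3 falls held on 1 of 3, 2 of 7 and 1 of 4 probe sets, and with probe sets averaged none of them passed, at -0.08, -0.05 and -0.07. Averaging left 4 AKAP genes higher, with AKAP10 at 0.10 added to the 3 above, and 0 lower.

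Cyclic AMP is made by adenylyl cyclases under the control of G-alpha subunits and broken down by phosphodiesterases. Of 15 adenylyl cyclase and G-alpha genes, 2 rose and 1 fell (median -0.05). The cyclase ADCY9 rose by 0.23 ± 0.05 (limma adjusted p = 0.0049) and GNAI2, an inhibitory G-alpha subunit, by 0.17 ± 0.04 (adjusted p = 0.012), while ADCY1 fell by 0.13 ± 0.03 (adjusted p = 0.015) at signals of at most 16.55, below the lower quartile. ADCY9 stood at 0.14 with probe sets averaged, and ADCY1 did not pass without shERCC6L replicate 2 or shNC replicate 3. GNAS, the stimulatory subunit, was at -0.11 ± 0.04 on its brightest probe set and did not pass, but 4 of its 5 probe sets were called lower and their average passed at -0.13. ADCY7, at -0.13 on its brightest probe set, also passed as lower only when averaged, at -0.16, which made 2 higher and 3 lower in this list. Of 14 measured phosphodiesterase genes, 2 fell and none rose (median -0.06), where 12.9% of all genes fell. PDE8A, a high-affinity cyclic AMP phosphodiesterase, fell by 0.16 ± 0.04 (adjusted p = 0.0078) and the dim PDE11A by 0.31 ± 0.04 (adjusted p = 0.00031), or 0.07 with its 5 probe sets averaged. PDE8B, at -0.10 ± 0.04, did not pass. Averaging brought the falls to 3, with PDE10A at -0.13, against -0.10 on its brightest probe set.

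Beside PKA, cyclic AMP also acts through RAPGEF3, the exchange factor EPAC1. RAPGEF3 read 105.9, 114.3 and 111.3 in shERCC6L and 137.2, 134 and 124.2 in shNC, and fell by 0.22 ± 0.04 (limma adjusted p = 0.0053), but did not pass with its probe sets averaged, at -0.09. The other measured effectors, POPDC2 at -0.04 and POPDC3 at 0.00, did not pass.

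Of 7 measured CREB factors and coactivators, 2 fell and none rose (median -0.08), where 12.9% of all genes fell. CREM, a CREB relative whose locus also makes the cyclic AMP-induced repressor ICER, read 164.5, 165.2 and 164.6 in shERCC6L and 226.3, 232.9 and 228.4 in shNC. Each group was tight and the difference was -0.44 ± 0.03 (limma adjusted p = 1.9e-05). Of its 10 probe sets 6 fell and 1 rose, and their average differed by -0.20. CREBBP, the coactivator that docks on phosphorylated CREB, fell by 0.33 ± 0.04 (adjusted p = 0.00022), or 0.17 with probe sets averaged. Its paralog EP300, at -0.15 ± 0.06, did not pass, though it did without shERCC6L replicate 3.

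Cyclic AMP and CREB target genes were divided, with 2 of 13 higher and 2 lower (median 0.00), CREM being counted here as well. RGS2, which dampens G-protein signals, read 388.1, 408.6 and 430.2 in shERCC6L and 300.4, 310.8 and 321 in shNC and rose by 0.38 ± 0.05 (limma adjusted p = 0.00033). NR4A3, named after its value was seen, rose by 0.20 on its brightest probe set. That probe set was dim, with signals of at most 20.38 and its shNC arrays below the lower quartile. Among its 3 probe sets 1 was called higher and 1 lower, and their average of 0.05 did not pass. BDNF, at -0.07 on its brightest probe set, passed as higher with probe sets averaged, at 0.09. The clock gene PER1 fell by 0.27 ± 0.03 (adjusted p = 0.00047), or 0.08 with probe sets averaged, at signals of at most 33.09.

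On the GSK3 side, 3 of 18 measured genes of the beta-catenin destruction complex and Wnt relay rose and 1 fell (median 0.03). CSNK1D, a casein kinase 1 gene, read 466.8, 479.1 and 493 in shERCC6L and 835, 806.7 and 881.6 in shNC. It fell by 0.79 ± 0.04 (limma adjusted p = 4.1e-06) on this probe set and differed by -0.69 with probe sets averaged. All 5 of its probe sets were called lower. The Dishevelled genes DVL1 and DVL2, which relay the Wnt signal to GSK3 complexes, rose by 0.35 ± 0.03 (adjusted p = 9.2e-05) and 0.21 ± 0.04 (adjusted p = 0.0020). The third riser, CSNK1G2, was named after its value was seen and rose by 0.17. With probe sets averaged, 7 genes of this list passed as higher and 2 as lower. The added ones were CTNNB1 (beta-catenin) at 0.10, CSNK1A1 at 0.08, CSNK1G1 at 0.14 and DVL3 at 0.08, all higher, and BTRC at -0.13, lower.

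Of 12 measured Wnt target genes, 2 rose and 2 fell (median 0.02). MYC fell by 0.28 ± 0.04 (limma adjusted p = 0.00093) and NKD1, a feedback inhibitor of Dishevelled, by 0.20 ± 0.05 (adjusted p = 0.019). NKD1 did not pass with probe sets averaged, at -0.05, nor without shERCC6L replicate 2 or 3 or shNC replicate 1. The transcription factor gene SP5 rose by 0.22 ± 0.05 (adjusted p = 0.013), but did not pass without shERCC6L replicate 2. CCND1, named after its value was seen, rose by 0.12 on its brightest probe set and by 0.22 on average, and all 4 of its probe sets were called higher.

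Glycogen metabolism, which PKA and GSK3 both regulate, held the largest fall of the lists on the brightest probe sets. PHKB encodes the beta subunit of phosphorylase kinase, which PKA phosphorylates. It read 117.5, 155.5 and 147.5 in shERCC6L and 301.6, 354.5 and 311.4 in shNC. No shERCC6L array came near a control array, and all 3 of its probe sets fell. The difference was -1.12 ± 0.09 (limma adjusted p = 4.9e-05), or -0.72 with probe sets averaged, where PKIA at -0.74 fell more. Of the 17 measured genes of this list 4 rose and 1 fell (median 0.01). GYG1, the glycogenin that primes glycogen, rose by 0.21 ± 0.05 (adjusted p = 0.0087) and PPP1R3C, which brings protein phosphatase 1 to glycogen, by 0.21 ± 0.03 (adjusted p = 0.0016). UGP2 and PHKG2, named after their values were seen, rose by 0.12 and 0.14. Averaging gave 6 higher and 2 lower, with GYS1 at 0.08 and PPP1R3B at 0.12 added as higher and PHKA1 at -0.19 as lower, against 0.00 on the brightest PHKA1 probe set.

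**Figure D4:**
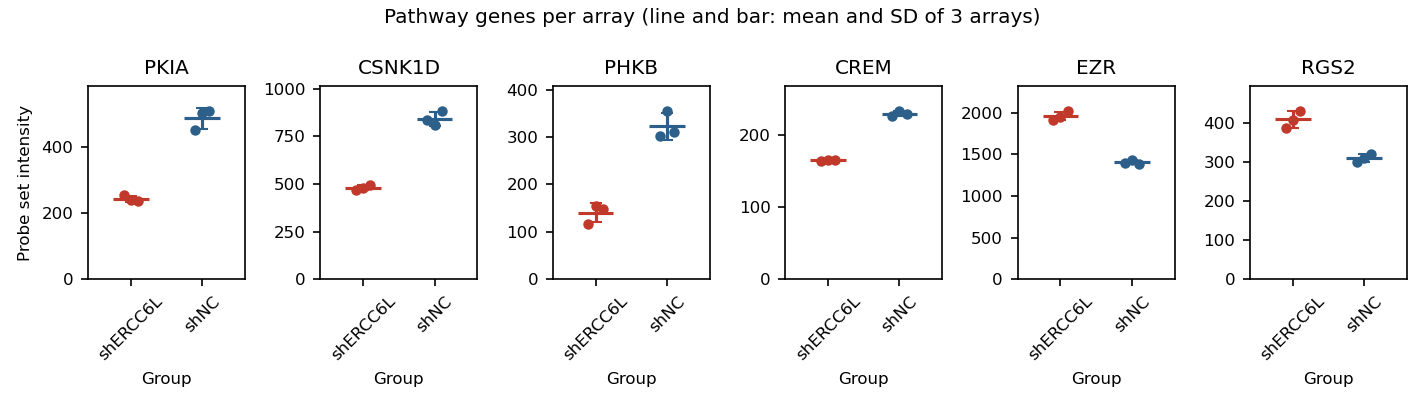
Deposited intensity on each array for PKIA, CSNK1D, PHKB, CREM, EZR and RGS2 (brightest probe sets, shERCC6L left and shNC right, lines and bars for the mean and SD of 3 arrays, axes from 0). The groups do not overlap in any of the 6 panels, with PKIA at 243.5 ± 10.2 in shERCC6L and 489 ± 31.8 in shNC. The 6 genes are among those with the smallest p of their lists, so this follows from the choice. On 41% of all probe sets the groups do not overlap.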

How the data were processed

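The values deposited by the authors are intensities on a linear scale, made with Affymetrix Expression Console per the submitters' processing notes. Its version and the steps behind these values were not given in the sources used here. Per the labels' protocols, biotinylated cRNA was made from 6 ug of total RNA. Intensities were transformed to log2(signal + 16), which understates the fold change of dim probe sets. A linear model with moderated variances (limma 3.58.1, R 4.3.3, 2-sided, no block) was fitted over 49293 probe sets, without 102 controls, with Benjamini-Hochberg adjustment and a threshold of 0.05. No detection calls were given, so background cannot be set apart from low signal, and the 6 arrays limit the precision.

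Genes come from GEO's platform annotation: 44988 probe sets have 1 symbol, 1832 several and 2473 none. The brightest probe set of a gene has the highest mean over all arrays. Members and gene lists were chosen with earlier results of these data known. Named are all members with every probe set, the 3 genes of each list with the smallest p and any list gene past 1.5-fold, the 3 genes nearest to PRKACB and to GSKIP, and the markers. Alternatives were other normalizations, pseudocounts, filters, variance models, units, a replicate block and leaving out each array.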

Additional observations from a re-analysis of the deposited data

How the results depend on the processing

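Under 17 alternatives no called member difference changed sign, and 27 of the 29 kept their call wherever they were tested. The exceptions were the dimmest PRKAR2A probe set without shNC replicate 2 and GSK3B with probe sets averaged. With 1 brightest probe set per gene, 3302 of all genes were higher and 2431 lower, and 4 members were higher and 4 lower. Averaged over the probe sets of a gene, these counts were 3603 and 2577 for all genes, 4 and 3 for members and 23 and 17 for pathway genes. Both settings test 18132 genes in place of probe sets, so fewer calls are possible. Leaving out 1 array gave 6872 to 7688 higher and 4711 to 5311 lower among all probe sets, 10 to 10 higher and 8 to 9 lower member probe sets, and 13 to 16 higher and 15 to 21 lower pathway genes. A pseudocount of 64 brought the 2 dimmer PRKACB falls to -0.75 and -0.28, and a pseudocount of 1 to -1.46 and -0.79. Same-numbered arrays deviated from their group means with correlations of 0.22, -0.15 and -0.03 and were not treated as pairs. With a replicate block 8031 probe sets were higher and 5665 lower, with 10 and 9 among the members and 17 and 18 among the pathway genes. The named pathway genes were added to these runs after the data were seen. None that passed reversed, and PDE8B passed without shERCC6L replicate 2.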

Other observations

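Of the probe sets with several symbols, 1 names a member, PRKAR2A together with CTU2. It read 269.6, 242.5 and 247.9 in shERCC6L and 339.1, 351.5 and 338 in shNC, a log2 difference of -0.42 ± 0.04 (SE, n = 3 per group). The groups did not overlap, and the signal cannot be assigned to either gene.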
